A study of Homo sapiens with 7 samples.

Results

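The genes described are the SWI/SNF, ARID and CHD chromatin remodelers, that is every gene whose symbol starts with SMARCA to SMARCE or ARID1 to ARID5, or is exactly CHD1 to CHD9 (CHD1L is not included). The rule used names alone and no measured value. It found 32 genes (13 SMARC, 10 ARID and 9 CHD genes) among the 20187 entries on chromosomes, or 22670 entries in all.

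RNA-seq was performed on SEES-3 human embryonic stem cells (hESCs), an established line, to see what follows when methylation of histone H3 lysine 27 is removed in pluripotent cells. The cells carried a reverse Tet-transactivator and a piggyBac insert in which a Tet-responsive element drives HA-tagged JMJD3c, the catalytic C-terminal part of the H3K27 demethylase JMJD3 (KDM6B) with a nuclear localization signal, followed by IRES-βgeo. 5 conditions of the JMJD3c line were sequenced, Day 0 without doxycycline (Dox) and Days 1, 2, 3 and 4 of Dox at 1 μg/ml. A control line with the same insert but a point mutation that abolishes catalysis was sequenced without Dox and at Day 4 of Dox. All libraries came from drug-selected, feeder-free cultures, and each condition had 1 library, so that differences below are not backed by replicates and come without p-values. The active and the mutant cells are separate lines, and each stands for its condition through 1 culture.

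Chromatin remodelers are ATP-driven machines that slide, eject or exchange nucleosomes. SWI/SNF (BAF) complexes are built around the ATPase SMARCA4 (BRG1) or SMARCA2 (BRM). They open promoters and enhancers and work against Polycomb, the system that writes and reads H3K27 trimethylation. Pluripotent cells use a form rich in SMARCA4, SMARCC1 and ARID1A. ISWI enzymes space nucleosomes evenly. CHD proteins bind modified histone tails through paired chromodomains. The wider ARID family shares an AT-rich DNA-binding domain but is spread over several complexes.

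Expression is given as FPKM, a read density per kilobase of transcript scaled to the mapped reads of the library. Each value has a 95% interval from Cufflinks, which covers the estimate within 1 library and not the spread between cultures. A ratio over 2, where the higher library exceeds 4 FPKM, is called a change past the fold (for lower genes, a ratio under 0.5). A second rule asks that the intervals of both libraries are apart, and "rose" and "fell" are used below for genes that met it. Log2 fold changes were calculated after adding 1 FPKM to each value, so that they understate changes of low genes.

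Promoters are shown for 3 genes whose intervals moved apart between Day 0 and Day 4. Each stretch ends at the first start that RefSeq lists for its gene. RefSeq windows list 2 starts for ARID5A, 3 for SMARCD2 and 1 for CHD8. Which start these cells used is not shown by values per gene. ARID5A and SMARCD2 fell, and CHD8 rose. RefSeq promoter windows (250 bases before and 50 after the start) were matched by symbol for 24 of the 32 genes. The others were ARID2, ARID3A, ARID3B, CHD5, CHD6, CHD7, SMARCC1 and SMARCC2. The 250 bases before the first listed start are printed 5′ to 3′ on the gene's own strand, from GRCh38.p14, a newer build than the hg19 of the expression files. Capitals mark the GC box GGGCGG and the ETS core CCGGAA, on either strand.
ARID5A, chr2:96536502-96536751, plus strand: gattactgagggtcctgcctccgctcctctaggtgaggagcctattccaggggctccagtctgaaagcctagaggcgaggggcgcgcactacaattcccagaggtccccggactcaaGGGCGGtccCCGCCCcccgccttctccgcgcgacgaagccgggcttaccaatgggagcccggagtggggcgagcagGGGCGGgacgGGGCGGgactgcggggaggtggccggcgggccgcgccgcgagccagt
SMARCD2, chr17:63842686-63842935, minus strand: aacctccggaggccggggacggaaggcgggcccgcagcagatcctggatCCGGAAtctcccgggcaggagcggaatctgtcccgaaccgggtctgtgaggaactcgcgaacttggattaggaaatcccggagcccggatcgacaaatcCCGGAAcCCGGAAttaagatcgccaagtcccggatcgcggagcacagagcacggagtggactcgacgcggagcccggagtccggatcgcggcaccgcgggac
CHD8, chr14:21437276-21437525, minus strand: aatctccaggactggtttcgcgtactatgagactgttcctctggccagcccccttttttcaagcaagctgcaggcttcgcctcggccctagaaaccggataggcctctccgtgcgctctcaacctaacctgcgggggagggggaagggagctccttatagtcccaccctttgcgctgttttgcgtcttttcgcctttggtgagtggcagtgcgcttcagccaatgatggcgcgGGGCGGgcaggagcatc
ARID5A has 4 GC boxes and no ETS core in this stretch, SMARCD2 has 3 ETS cores and no GC box, and CHD8 has 1 GC box. None of the capitals of 1 motif overlap those of the other. The stretches hold 25, 31 and 15 CpG dinucleotides, at 71.2%, 65.6% and 59.2% GC. Over the whole windows of 300 bases, a GC box was present in 17 of 24 members (70.8%) and in 45% of 35116 RefSeq windows. Members count with 1 window each, at the first listed start, but the share of all windows counts every start of every gene, expressed or not. An ETS core was present in 5 of 24 members (20.8%) and in 17.2% of all windows. CCAAT was found in 7 members (29.2%, against 34.6%), the TATA box TATAAA in ARID5B alone (4.17%, against 11.5%) and the E-box CACGTG in CHD9 alone (4.17%, against 7.26%). The YY1 core AAGATGGC was found in SMARCD1 alone (4.17%, against 2.89%), and the CRE TGACGTCA and octamer ATTTGCAT in 0 members (against 1.85% and 1.77%). A GC box thus stands before the first listed start of ARID5A, which fell, and of CHD8, which rose. These matches describe letters only.

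The libraries were shallow. Steps of whole reads among low values gave a depth of 1770000 reads at Day 0, the lowest, and 3650000 in the mutant line without Dox, the highest, or 3540000 and 7300000 if the commonest step is 2 reads. The induced gene was present where the labels place it: KDM6B rose from 3.45 FPKM at Day 0 to 158, 212.5, 248 and 282 FPKM at Days 1 to 4, and from 2.40 to 454 FPKM in the mutant line, where reads of the insert count with those of the endogenous gene. Of the 8 pluripotency markers of the labelled cell type, 8 were above 1 FPKM in every library, summing to 2621 FPKM at Day 0 and 1826 at Day 4 (mutant line 2456 and 2127). The sum of 8 mesoendoderm markers moved with the time course, from 5.49 FPKM with 5 markers at 0 at Day 0 to 309.8 FPKM with 0 markers at 0 at Day 4. It was 10.9 and 7.83 FPKM in the mutant line. The part of such a shift in cell state in the results below was not tested. The 6 neuroectoderm markers summed to at most 13.6 FPKM, and 6 trophoblast and amnion markers to at most 6.53 FPKM. The 6 fibroblast markers summed to between 93.6 and 168 FPKM, most of it from 1 gene, and 2 of them were at 0 in each library of the JMJD3c line. All values come from bulk RNA, in which fewer cells that express a gene and less RNA in each cell cannot be told apart.

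The remodelers spanned a wide range of levels, and several SWI/SNF genes and CHD4 stood at the top. As a mean over the 7 libraries, SMARCE1, a DNA-binding subunit common to SWI/SNF complexes, had the highest level (138 FPKM). It was followed by the NuRD ATPase CHD4 (92.6), SMARCD1 (86.9), SMARCC1 (86.6), SMARCB1 (76.6) and SMARCA4 (63.4). ARID1A, named above with SMARCA4 and SMARCC1 for the pluripotent form, was lower (33.8). CHD4, SMARCD1 and SMARCC1 lay within each other's intervals at Day 0, so that their order is not fixed. At the low end were SMARCD3 (2.69 FPKM), a subunit known from heart and muscle, CHD5 (0.920), a neuronal NuRD ATPase, and ARID5B (0.599). ARID3C was listed at 0 in every library, where 3 reads would correspond to between 0.432 and 0.890 FPKM at the lower depth estimate. The median member above 4 FPKM had 20.7 FPKM at Day 0, and the median of all such genes was 16.8 FPKM.

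**Figure D1:**
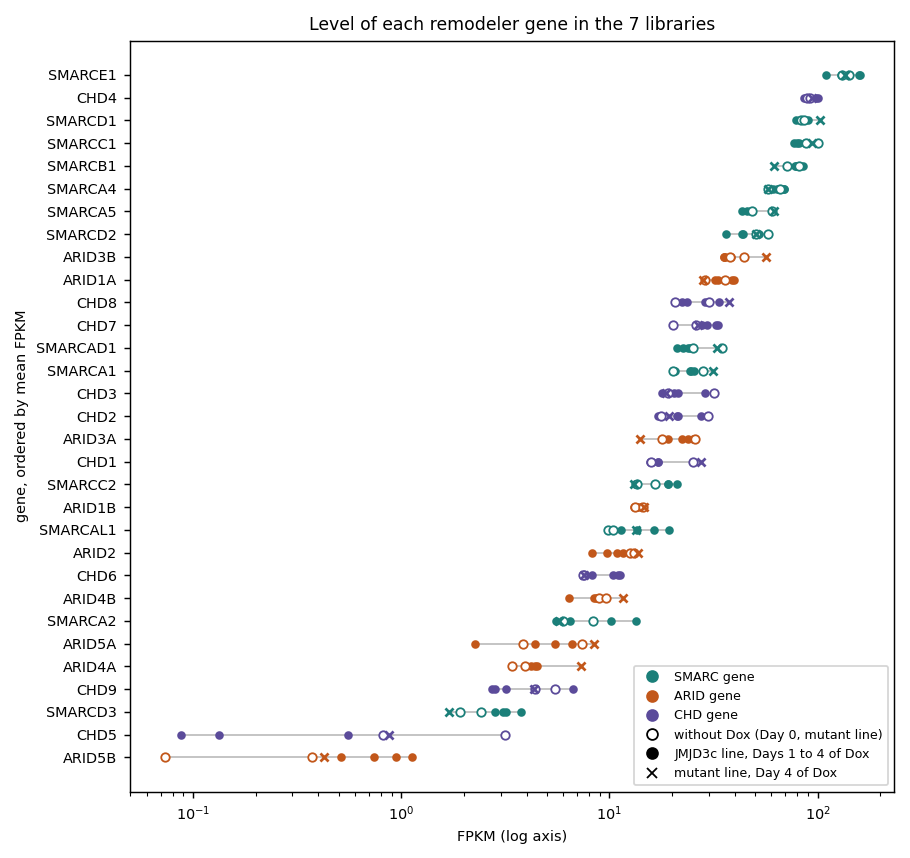
FPKM (log axis) of 31 remodeler genes in each of the 7 libraries, ordered by the mean; ARID3C, listed at 0, is left out. Open circles are the libraries without Dox, filled circles Days 1 to 4 of Dox in the JMJD3c line, crosses the mutant line at Day 4 of Dox, and lines join the lowest and highest library. SMARCE1 leads at 138 FPKM and most genes stay within a narrow band, whereas ARID5A, CHD5 and ARID5B spread widely.

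The question for the JMJD3c line was whether remodeler genes changed while the demethylase was on. Most stayed close to their Day 0 level. Of the 28 members above 4 FPKM at Day 0 or Day 4, 21 differed by less than 0.5 on the log2 scale, as did 66.7% of all such genes. The median log2 fold change over the 32 members was -0.046, and over all genes above 1 FPKM it was -0.055. None of the 28 went above the fold, where 5.87% of all genes did, and 2 (ARID5A and CHD9) went below it, where 7.56% did. By intervals, 2 members rose (CHD7 and CHD8), against 5.15% of all genes, and 3 fell (ARID2, ARID5A and SMARCD2), against 7.00%. Both counts are near those of all genes. The intervals of members were also narrower than usual, with a median width of 35.8% of the FPKM at Day 0 and 31.9% at Day 4, against 65.4% and 54.8% for all genes above 4 FPKM, so that smaller changes could separate them. Another scaling of the libraries shifts these figures: upper-quartile scaling moved all genes by 0.13 on the log2 scale. It changed the calls of all genes from 602 higher and 775 lower to 741 and 577, and the members from 13 up and 18 down to 19 and 12.

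Earlier days gave fewer calls. At Day 1, 1 member (SMARCA2) was higher by the fold (3.48% of all genes) and 0 lower (3.27%), while 1 (CHD7) rose by intervals (1.45%) and 0 fell (2.54%). At Day 2, 0 members were higher (3.90%) and 0 lower (4.24%) by the fold, 1 (CHD7) rose by intervals (2.73%) and 1 (CHD3) fell (4.49%). At Day 3, 0 members were higher (4.73%) and 0 lower (4.48%) by the fold, and 1 (CHD7) rose by intervals (4.45%) and 0 fell (4.34%). CHD7 was thus the member whose interval lay above that of Day 0 at all 4 later days. At Day 1 the margin was narrow, from 23.91 FPKM upward against at most 23.88 FPKM at Day 0. These comparisons share the 1 Day 0 library, and the share of all genes with this pattern was not counted. The median log2 fold changes of members were -0.013, 0.077 and 0.0285 at Days 1, 2 and 3.

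**Figure D2:**
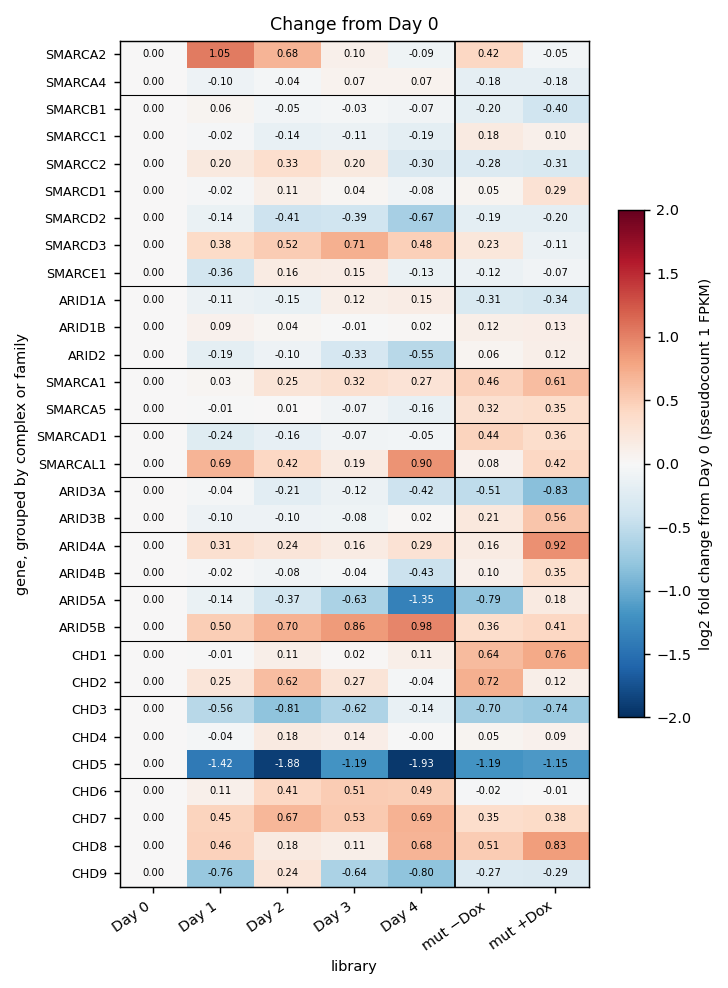
Log2 fold change from Day 0 (1 FPKM added) for 31 remodeler genes in rows, grouped by complex or family, and the 7 libraries in columns; red is higher and blue lower than Day 0, and the mutant line stands right of the vertical line. ARID5A reaches -1.35 at Day 4 and most cells lie near 0; CHD5 and ARID5B were below 4 FPKM throughout.

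The SWI/SNF ATPases came first. SMARCA4 was level, at 65.6, 61.0, 63.6, 69.0 and 68.8 FPKM on Days 0 to 4, with 57.95 and 57.87 FPKM in the mutant libraries. Its alternative SMARCA2, associated with differentiated cells, stood at 5.97, 13.4, 10.2, 6.495 and 5.56 FPKM on Days 0 to 4. The mutant line had 8.33 FPKM without Dox and 5.72 FPKM with it. Day 1 was the highest library, but its interval (7.21 to 19.6 FPKM) overlapped that of Day 0 (2.13 to 15.2). SMARCA2 made up 8.34% of the summed FPKM of both ATPases at Day 0, 18.0% at Day 1 and 7.48% at Day 4, so that SMARCA4 was the main transcript in every library.

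Among the shared subunits, SMARCD2 stood out. It encodes BAF60B, 1 of 3 interchangeable subunits that link the complex to transcription factors, and lies at chr17:61909444-61920425 (hg19, minus strand). It had 58.0, 52.6, 43.5, 43.9 and 36.1 FPKM on Days 0 to 4. Both mutant libraries were level, at 50.7 FPKM without Dox and 50.4 FPKM with it. Day 4 was the lowest of the 7 libraries, and its interval (29.8 to 42.5 FPKM) lay below those of Day 0 (48.9 to 67.2) and of both mutant libraries (from 44.9 FPKM upward). The log2 fold change was -0.67 from Day 0, and -0.63 after the median of genes of like GC content was subtracted. Day 4 against the mutant line with Dox gave a log2 fold change of -0.47.

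Its paralog SMARCD1, the form typical of pluripotent cells, had 83.2 FPKM at Day 0 and 78.9 FPKM at Day 4, and ranged up to 102 FPKM in the mutant line with Dox. The share of SMARCD2 in the summed FPKM of the 3 paralogs was 40.5% at Day 0 and 30.6% at Day 4. In the mutant line it was 36.4% without Dox and 32.6% with it, so that a lower share also came with Dox there, through a higher SMARCD1. SMARCD3 contributed at most 2.83%.

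The scaffold subunit SMARCC1 had 87.8 FPKM at Day 0 and 77.0 FPKM at Day 4, with overlapping intervals, and 99.96 and 94.3 FPKM in the mutant line. SMARCC2, its paralog known from neural forms of the complex, went from 16.6 FPKM at Day 0 to 21.1 at Day 2 and 13.3 at Day 4. SMARCC2 overlaps the abundant MYL6 by 26 bases. SMARCB1, the tumour suppressor that anchors the complex on the nucleosome, ranged from 61.5 to 85.4 FPKM and overlaps DERL3 by 14 bases. SMARCE1 ranged from 110.2 to 159 FPKM, and its value in the mutant line without Dox (131 FPKM) lay outside its own interval (97.2 to 128). None of these 4 genes had intervals apart between Day 0 and Day 4.

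The ARID subunits decide which SWI/SNF complex is formed. ARID1A and ARID1B define canonical BAF and ARID2 defines PBAF. ARID2 (chr12:46123448-46301823, plus strand) had 12.6, 10.9, 11.6, 9.76 and 8.28 FPKM on Days 0 to 4. The mutant line had 13.1 FPKM without Dox and 13.8 FPKM with it. Day 4 was again the lowest library, with an interval (6.76 to 9.80 FPKM) below those of Day 0 (10.3 to 14.8) and of the mutant line (11.5 to 14.7, and 12.0 to 15.6). The log2 fold change from Day 0 was -0.55, and -0.56 after the GC subtraction.

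ARID1A had 35.8 FPKM at Day 0 and 39.8 FPKM at Day 4, against 28.7 and 28.0 FPKM in the mutant line. Its Day 4 interval (35.5 to 44.4 FPKM) overlapped that of Day 0 and lay above both mutant libraries. ARID1B hardly varied, between 13.1 and 14.6 FPKM. As a share of the 3 genes, ARID2 went from 20.4% at Day 0 to 15.8% at Day 3 and 13.5% at Day 4, and was 23.3% and 24.4% in the mutant line. ARID1A went from 58.1% at Day 0 to 64.7% at Day 4, and was 51.0% and 49.7% in the mutant line. The share at Day 4 was thus higher for ARID1A and lower for ARID2, in 1 library, while ARID1B held 21.5% at Day 0 and 21.9% at Day 4. For ARID1A, the log2 fold change of Day 4 over the mutant line with Dox was 0.49. It was 0.32 after the GC subtraction and 0.64 after the same subtraction by transcript length. Over the mutant line without Dox the 3 values were 0.46, 0.24 and 0.61. The part of GC content and length in these shares was not tested.

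**Figure D3:**
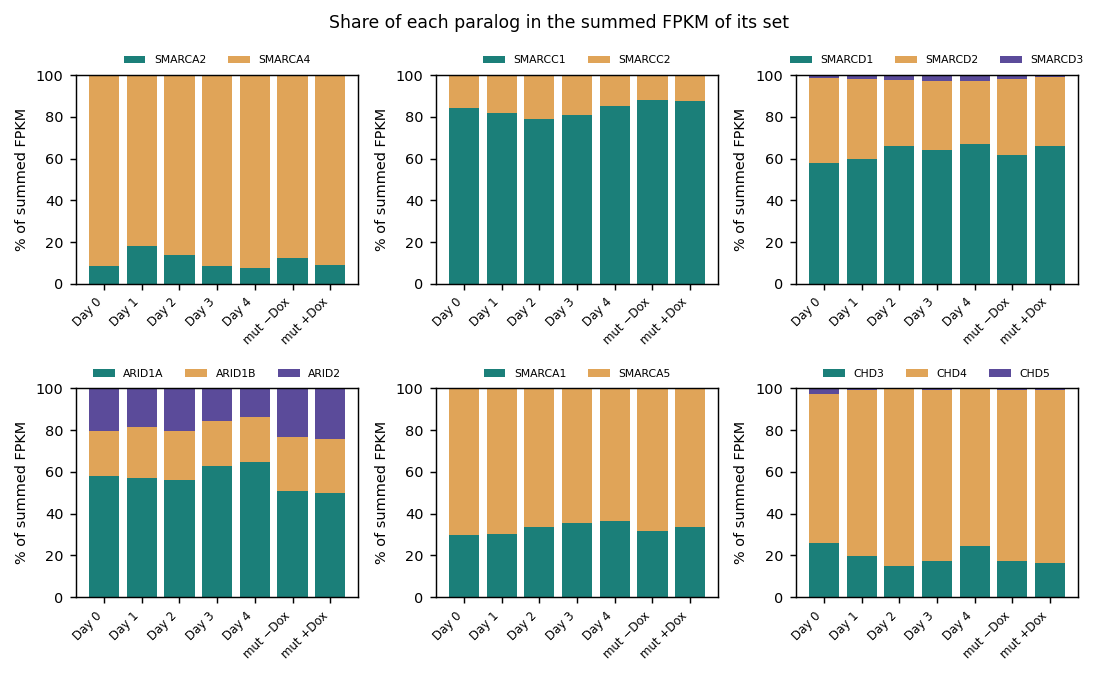
Stacked bars of the share (percent) of each paralog in the summed FPKM of its set, for 6 sets and 7 libraries (Days 0 to 4 of the JMJD3c line, then the mutant line without and with Dox). SMARCA4, SMARCC1 and CHD4 dominate their sets throughout, and the ARID2 share is smallest at Day 4 (13.5%).

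Day 4 was set apart from every library without active JMJD3c by 2 members, both SWI/SNF subunits. ARID2 and SMARCD2 (2 of the 28 remodelers above 4 FPKM) lay below Day 0 and both mutant libraries with intervals apart, as did 1.97% of all genes. Intervals of members were narrower than usual, as given above, and the part of this was not tested. The opposite pattern was seen for 0 members and for 2.62% of all genes. The Day 4 comparisons share that 1 library.

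The ARID5 pair moved in opposite directions over the time course. ARID5A (chr2:97202486-97218375, plus strand) encodes a protein that binds AT-rich DNA and also stabilises inflammatory mRNAs. It had 7.36, 6.61, 5.48, 4.39 and 2.27 FPKM on Days 0 to 4, the single member that was lower at each step (1 of 31, against 3.26% of all genes). The mutant line went the other way, from 3.85 FPKM without Dox to 8.48 FPKM with it. In the JMJD3c line the Day 4 interval (0.827 to 3.72 FPKM) lay below that of Day 0 (4.44 to 10.2), at a ratio of 0.309 and a log2 fold change of -1.35. The GC subtraction brought this to -1.08.

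The untreated libraries differed as well, since ARID5A in the mutant line without Dox (interval 2.43 to 5.23 FPKM) overlapped both Day 0 and Day 4. Against that reference the log2 fold change at Day 4 was -0.57, and no call was made. In the mutant line the intervals without and with Dox (6.20 to 10.8 FPKM) were apart, at a ratio of 2.20 and a log2 fold change of 0.97. The log2 fold changes of the lines thus differed by 2.32, which was not tested.

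ARID5B, a partner of the demethylase PHF2, was the single member that was higher at each step (1 of 31, against 3.06% of all genes). It had 0.0731, 0.513, 0.741, 0.945 and 1.12 FPKM on Days 0 to 4, and 0.373 and 0.425 FPKM in the mutant line. Day 0, the shallowest library, was the lowest. The Day 4 interval (0.534 to 1.72 FPKM) overlapped that of Day 0 (0 to 0.577), and these levels rest on few reads.

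**Figure D4:**
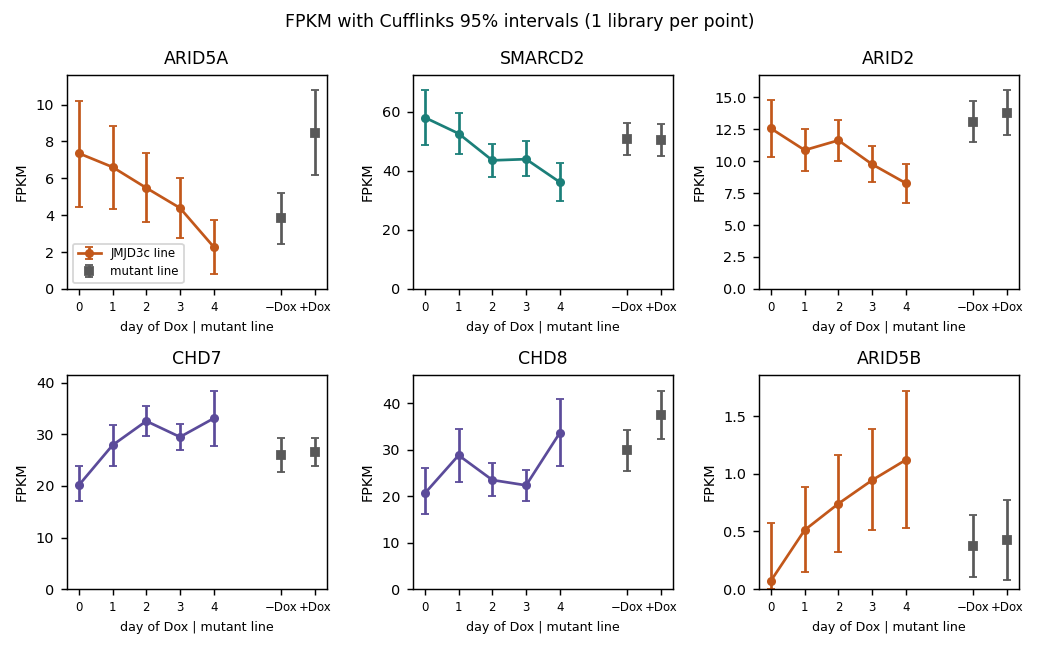
FPKM of 6 genes at Days 0 to 4 of Dox in the JMJD3c line (lines) and in the mutant line without and with Dox (grey squares); bars are Cufflinks 95% intervals and each point is 1 library. ARID5A, SMARCD2 and ARID2 end at their lowest value at Day 4, CHD7 and CHD8 end above Day 0, and ARID5B stays near or below 1.12 FPKM.

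The other ARID genes moved less. ARID3A, a transcription factor first found in B cells, had 25.9 FPKM at Day 0 and 19.1 FPKM at Day 4, with overlapping intervals, and 17.9 and 14.1 FPKM in the mutant line. ARID3B was level in the JMJD3c line (35.4 to 38.5 FPKM) and reached 56.6 FPKM in the mutant line with Dox. ARID4A and ARID4B are subunits of the SIN3 corepressor. ARID4A ranged from 3.41 to 7.31 FPKM, with the mutant line with Dox highest. ARID4B had 8.94 FPKM at Day 0, 6.37 at Day 4, and 9.67 and 11.6 FPKM in the mutant line. ARID4B overlaps GGPS1 by 870 bases.

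CHD7 and CHD8 were the members that rose. CHD7 sits at enhancers and is the gene mutated in CHARGE syndrome. It had 20.1, 27.9, 32.6, 29.5 and 33.1 FPKM on Days 0 to 4. The mutant line had 26.0 FPKM without Dox and 26.5 FPKM with it. Day 0 was the lowest of the 7 libraries, and the Day 4 interval (27.7 to 38.4 FPKM) overlapped both mutant libraries. The log2 fold change at Day 4 was 0.69 from Day 0, and 0.34 from the mutant line without Dox, so that the size depends on which untreated library is the reference.

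CHD8, a remodeler linked to autism and to Wnt signalling, lies at chr14:21853353-21924239 on the minus strand. It had 20.7, 28.8, 23.5, 22.4 and 33.7 FPKM on Days 0 to 4. The mutant line had 29.9 FPKM without Dox and 37.6 FPKM with it. The course had no steady direction, and Day 0 was again the lowest library. The Day 4 interval (26.4 to 40.9 FPKM) lay just above that of Day 0 (16.3 to 26.0). It overlapped both mutant libraries (25.5 to 34.3 FPKM without Dox and 32.3 to 42.7 with it). The log2 fold change at Day 4 was 0.68 from Day 0 but 0.16 from the mutant line without Dox and -0.15 from the mutant line with Dox.

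CHD6 went from 7.58 FPKM at Day 0 to 11.0 FPKM at Day 4, with 7.43 and 7.52 FPKM in the mutant line. CHD9 had 5.51, 2.83, 6.71, 3.18 and 2.73 FPKM on Days 0 to 4, and 4.38 and 4.34 FPKM in the mutant line. Its ratio at Day 4 (0.495) passed the fold, but the intervals of Day 0 (1.72 to 9.57 FPKM) and Day 4 (1.58 to 7.12) overlapped almost entirely. CHD9 thus lay just inside the fold at a level near the expression cutoff. SMARCAL1 lay just outside it on the other side.

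The NuRD ATPases were dominated by CHD4, a repressor needed for lineage choice, with 88.7 FPKM at Day 0, 88.6 FPKM at Day 4 and a range of 86.3 to 100.5 FPKM. CHD3 had 31.9, 21.3, 17.8, 20.3 and 28.8 FPKM on Days 0 to 4. The mutant line had 19.2 FPKM without Dox and 18.7 FPKM with it. The Day 0 and Day 4 libraries were both high, and the dip at Day 2 (14.8 to 21.7 FPKM) was apart from Day 0 (23.7 to 40.1). CHD3 overlaps LSMD1 by 404 bases. CHD5 had 3.16 FPKM at Day 0 and at most 0.873 FPKM in the other libraries, with intervals that overlapped (0.241 to 7.36 FPKM at Day 0, 0 to 1.65 at Day 4).

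CHD1, a reader of H3K4 trimethylation that keeps stem cell chromatin open, was level in the JMJD3c line (15.7 to 17.2 FPKM) and higher in the mutant line (25.2 and 27.5 FPKM). CHD2, its closest relative, ranged from 17.2 to 29.7 FPKM without intervals apart in any comparison. The ISWI ATPase SMARCA5 went from 48.2 FPKM at Day 0 to 43.2 FPKM at Day 4, and had 60.5 and 61.7 FPKM in the mutant line. The other ISWI ATPase, SMARCA1, had 20.2 FPKM at Day 0, 24.6 at Day 4, and 28.2 and 31.4 FPKM in the mutant line. SMARCAD1, which restores heterochromatin after replication, had 25.3 FPKM at Day 0, 24.3 at Day 4, and 34.7 and 32.7 FPKM in the mutant line. SMARCAL1, which remodels stalled replication forks, had 9.85 FPKM at Day 0 and 19.2 FPKM at Day 4 at a ratio of 1.95. Its Day 4 interval (9.28 to 31.0 FPKM) overlapped that of Day 0 (6.33 to 19.8).

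The mutant line asked what Dox and an inactive JMJD3c do without demethylation. Members were nearly still, with a median log2 fold change of 0.021. By the fold, 1 member was higher (ARID5A) against 1.25% of all genes, and 0 were lower against 1.53%. By intervals 1 rose (ARID5A) against 1.47%, and 0 fell against 1.68%. Of the 28 members above 4 FPKM, 25 (89.3%) differed by less than 0.5 on the log2 scale, as did 88.7% of all such genes.

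**Figure D5:**
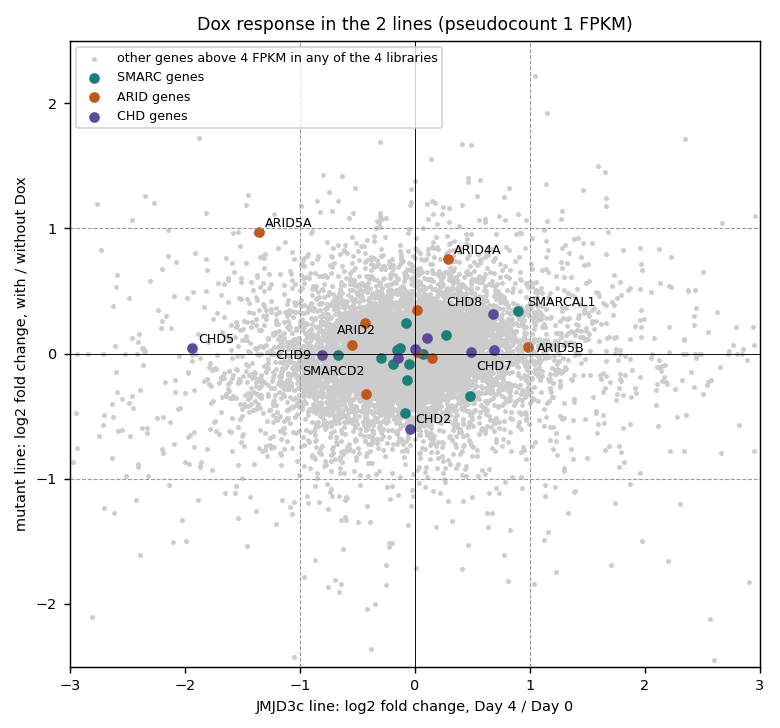
Log2 fold change at Day 4 against Day 0 in the JMJD3c line (horizontal) against that with Dox in the mutant line (vertical), with 1 FPKM added. Coloured points are 31 remodeler genes, grey points 10505 other genes above 4 FPKM in any of the 4 libraries (63 lie outside the axes), and dashed lines mark 1 on the log2 scale. ARID5A, at -1.35 and 0.97, is the highest member on the vertical axis, and CHD5 alone lies farther left.

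Active and inactive JMJD3c were also compared at Day 4 of Dox. By the fold, 0 members were higher (6.56% of all genes) and 1 was lower (ARID5A, 3.00%). By intervals 1 was higher (ARID1A, 7.58%) and 11 were lower (8.67%), namely ARID2, ARID3B, ARID4B, ARID5A, CHD1, SMARCA1, SMARCA5, SMARCAD1, SMARCC1, SMARCD1 and SMARCD2. The median log2 fold change of members was -0.13, and that of all genes was -0.0002. Against the mutant line without Dox, 0 members were higher (7.05%) and 0 lower (3.90%) by the fold. By intervals 1 was higher (ARID1A, 8.65%) and 7 were lower (9.96%), namely ARID2, ARID4B, CHD1, SMARCA5, SMARCAD1, SMARCC1 and SMARCD2. The lower calls, 11 of 28 and 7 of 27 members above 4 FPKM, exceeded the share among all genes. Intervals of members were narrower in the mutant libraries too. Their median width was 26.7% of the FPKM with Dox and 24.7% without it, against 46.75% and 43.4% for all genes above 4 FPKM. The part of interval width in this excess was not tested.

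The lines differed before Dox as well. Between the untreated libraries, 0 members were higher (2.78% of all genes) and 0 lower (7.01%) by the fold. By intervals 4 were higher in the mutant line (CHD1, SMARCA1, SMARCA5 and SMARCAD1, 6.79%) and 1 was lower (CHD3, 6.93%). These 4 genes are also among the 11 that were lower at Day 4 than in the mutant line with Dox. Their longest transcripts have between 37.1% and 39.5% GC, and CHD3 has 56.3%.

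GC content moved with the difference between the lines over all genes. From the quintile of genes lowest in GC to the highest, the median log2 fold change of the untreated mutant line over Day 0 went from 0.27 to -0.40. That of Day 4 over the mutant line with Dox went from -0.21 to 0.18. From Day 0 to Day 4 it went from 0.028 to -0.21. With GC subtracted, the differences of the untreated libraries for CHD1, SMARCA1, SMARCA5 and SMARCAD1 went from 0.64, 0.46, 0.32 and 0.44 to 0.36, 0.23, 0.081 and 0.16. Transcript length moved with it too: members are long, with a median of 6513 bases against 3812 for all genes, and Day 4 over the mutant line with Dox went from 0.13 in the shortest quintile to -0.12 in the longest. With length subtracted, the members' median of -0.13 became -0.021, whereas with GC subtracted it became -0.177. With GC subtracted, the difference of Day 4 from the mutant line with Dox went from -0.67 to -0.47 for ARID2 and from -0.47 to -0.62 for SMARCD2. For CHD1, SMARCA1, SMARCA5 and SMARCAD1 it went from -0.65, -0.34, -0.51 and -0.41 to -0.44, -0.16, -0.30 and -0.20. ARID4B and SMARCC1 went from -0.78 and -0.29 to -0.59 and -0.23. ARID3B, ARID5A and SMARCD1 went from -0.54, -1.53 and -0.37 to -0.72, -1.71 and -0.52. The part of GC content and length in the calls between lines was not tested.

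Partner genes of the same machines were looked at for comparison, in 5 lists of 58 genes in all, each of which was found. From Day 0 to Day 4 they had a median log2 fold change of -0.046, the same as the members. By the fold 0 were higher (5.87% of all genes) and 1 was lower (7.56%), DPF1, a BAF subunit of neurons, with 6.99 FPKM at Day 0 and 2.46 FPKM at Day 4 and overlapping intervals. By intervals 0 rose (5.15%) and 5 fell (7.00%), the latter near the share among all genes. These 5, named after their values were seen, were the NuRD subunits MTA3 (71.3 to 36.0 FPKM) and GATAD2A (99.1 to 58.2), the ISWI partner CECR2 (32.7 to 18.0), the INO80-family ATPase RUVBL2 (85.0 to 61.8) and HELLS (73.9 to 40.9), a remodeler needed for DNA methylation. In the mutant line with Dox MTA3 had 49.6 FPKM, GATAD2A 56.4, CECR2 26.0 and HELLS 57.3, against 64.8, 69.2, 30.3 and 66.5 FPKM without it. RUVBL2 had 66.6 FPKM with Dox and 58.1 FPKM without it. In the mutant line 0 partners were higher (1.25% of all genes) and 0 lower (1.53%) by the fold, and by intervals 0 rose (1.47%) and 2 fell (1.68%). These 2, also named after their values were seen, were MTA3 and the ISWI partner RSF1 (46.5 FPKM without Dox and 25.4 FPKM with it). MTA3 thus fell in both lines.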

How the data were processed

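Poly(A) RNA was sequenced in 7 libraries, 1 per condition, as single-end reads of 150 bases. The authors aligned them with TopHat 2.0.13 (genome build hg19) and deposited FPKM values per gene, with 95% bounds, from Cufflinks 2.1.1 (base calling with CASAVA 1.4, per the submitters' processing notes). The kit was directional, and whether strand was used in counting is not given in the sources used here. Samples were grouped by their labels.

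From the FPKM values, ratios and log2 fold changes (pseudocount 1 FPKM) were calculated with Python 3.11.15, numpy 2.4.6, pandas 2.3.3 and matplotlib 3.10.9, after tests on simulated data. Background shares are over chromosome genes above 4 FPKM in either library. For step patterns they are over genes above 1 FPKM on any day, and for Day 4 against 3 libraries over genes above 4 FPKM in any of the 4. GC content and length come from the longest GENCODE release 44 transcript on GRCh37, which is hg19, and corrections subtracted medians in 20 bins. Promoters come from RefSeq, GRCh38.p14.

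Read totals are not part of FPKM values. The steps between low values of 45 genes gave the depth, which leaves a factor of 2 in absolute depth. Floors cover counting error only. All members, and partners past the fold, were to be named. Members, lists and rules were chosen with earlier results of these data known. With 1 library per condition no test was made. Alternatives covered cutoffs, pseudocounts, scalings, references, GC content and length.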

Additional observations from a re-analysis of the deposited data

Results flagged for a closer look

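ARID5A went in opposite directions in the lines. It was lower at Day 4 of Dox than at Day 0 in the JMJD3c line (7.36 to 2.27 FPKM) and higher with Dox in the mutant line (3.85 to 8.48 FPKM). The log2 fold changes differed by 2.32, and this difference was not tested, since each condition has 1 library.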

How the results depend on the processing

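With 1 library per condition, no library could be left out within a condition. For the same reason no paired analysis was possible. The members' median log2 fold change at Day 4 against Day 0 changed its sign under some alternatives, given below. The other medians kept their sign. At Day 4 against Day 0, the count of higher members was 0 and became 1 with more than 1 FPKM required, 3 at a ratio above 1.5, 1 with median-ratio scaling and 1 with upper-quartile scaling. The count of lower members was 2 and became 3 with more than 1 FPKM required, 0 with more than 10 FPKM required, 4 at a ratio above 1.5, 1 with intervals also apart and 1 with either scaling. It was 0 with the untreated mutant line as reference (3.90% of all genes) and 0 with Day 3 as the treated library (4.48%). Over all genes, median-ratio scaling gave 670 higher and 671 lower, and upper-quartile scaling 741 and 577. In the mutant line the 1 higher member became 0 with more than 10 FPKM and 2 at a ratio above 1.5, and the 0 lower members became 1 at a ratio above 1.5. For the other FPKM cutoffs, the ratio above 1.5 and intervals also apart, all genes were not counted. Those counts therefore show how the rule acts and nothing particular to the members. The members' median log2 fold change at Day 4 went from -0.046 to 0.061 with upper-quartile scaling, and was also above 0 with median-ratio scaling (0.002), GC bins subtracted (0.0148) and Day 3 as the treated library (0.0285). Against the mutant line at Day 4 it went from -0.13 to -0.021 with length bins subtracted, and to -0.177 with GC bins subtracted. Between the untreated libraries it went from 0.068 to 0.15 with GC bins subtracted, an alternative chosen after seeing the data. The other values of counts and medians moved by at most 1.5 times or by less than 0.1 on the log2 scale. For 17 of the 31 detected members the sign at Day 4 was the same in all settings, among them ARID2, ARID5A, SMARCD2, CHD7 and CHD8. The share of all genes that kept their sign was not counted. A pseudocount cannot change a sign, and scaling shifted all genes alike by at most 0.13 on the log2 scale. These settings could therefore not flip changes as large as those of the named genes. The mutant line with Dox as reference was not among the settings, and against it CHD8 was at -0.15. The causes were not tested beyond the construction of each alternative. Depth limits genes below about 4 FPKM, such as ARID5B and CHD5, whose intervals span most of their range.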
